A study of Homo sapiens with 20 samples.

Results

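Transcripts of 8 genes best known from blood cells were followed through RNA libraries of exosomes and RNA granules from HEK293 cells, an established human embryonic kidney line. The genes were ALAS2, HBA1, HBA2, HBB, HBG1, HBG2, RGS18 and PTPRC, 8 of the 62266 genes with a named transcript in the files. They were picked by symbol because most of them had stood higher in control exosomes than in control granules, so that contrast is given below as a description and supports nothing. Exosomes are small membrane vesicles that cells release, and the granules are cytoplasmic assemblies of RNA and protein, labelled RNA granule and, in the sample titles, SG. The study compared the RNA of both in normal and Huntington's disease cells.

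The 20 total RNA libraries formed 4 groups of 5 biological replicates: control exosomes, HD exosomes, control granules and HD granules. HD stands for cells labelled HD-induced, and the labels do not say how that was done. All 4 groups are of HEK293 cells, a line in continuous culture and not a blood or nerve cell. Each library is bulk RNA, so fewer vesicles or cells carrying a transcript and less of it in each cannot be told apart.

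Levels are given as RPM, the estimated reads of a gene divided by all estimated reads on named transcripts of the same library and scaled to 1000000. Comparisons between genes use TPM, which corrects for transcript length. Named reads (M, 1000000 reads) came to 5.30 to 9.04 M in control exosomes, 11.4 to 24.5 M in control granules and 17.7 to 23.9 M in HD granules. HD exosomes 1, 2, 3 and 5 held 7.41, 1.94, 1.33 and 3.00 M. HD exosome 4 held only 713 reads, so its 0 reads of every member allow up to 4208 RPM and carry no information, and results are also given without it. In HD exosome 2 only 13.4% of reads fell on named transcripts, against 53.7% to 70.7% in the other exosomes. HEK293 genes were present throughout: the summed level of 15 of them, such as VIM, KRT8, KRT18 and LIN28B, was 1645 to 1811 RPM in control exosomes and 785 to 975 in control granules. That sum was 1324 to 1915 in the 4 usable HD exosomes and 710 to 1674 in HD granules.

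Hemoglobin carries oxygen in red blood cells and is built of alpha-like and beta-like globin chains around heme. HBA1 and HBA2 encode the alpha chain, HBB the adult beta chain, and HBG1 and HBG2 the gamma chains that take its place before birth. ALAS2 is the red cell form of 5-aminolevulinate synthase, which starts heme synthesis, RGS18 damps G protein signalling in platelets and their precursors, and PTPRC (CD45) is the receptor tyrosine phosphatase found on nearly all leukocytes. A kidney-derived line is not known for making any of these proteins at a high level.

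The members spanned a wide range of ranks among the genes detected in control exosomes. By mean TPM over control exosomes HBG1 was the highest member at 52.4 ± 29.8 (SD, n = 5), with 546 of 31146 detected genes above it. HBA1 followed at 23.05, HBG2 at 13.8, HBB at 7.01, ALAS2 at 3.92, HBA2 at 2.82, RGS18 at 2.11 and PTPRC at 0.258 TPM. The genes above them numbered 1435 for HBA1, 2577 for HBG2, 4875 for HBB, 7149 for ALAS2, 8384 for HBA2, 9318 for RGS18 and 14556 for PTPRC. The spread between libraries was wide: the SD was 14.2 for HBA1, 10.7 for HBG2, 6.65 for HBB and 4.65 for HBA2, so no neighbours in this order from HBG1 down to RGS18 differed beyond it. PTPRC, at 0.258 ± 0.129 TPM, lay below RGS18, at 2.11 ± 0.976 TPM, and below HBA2's mean but not its lowest library.

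**Figure D1:**
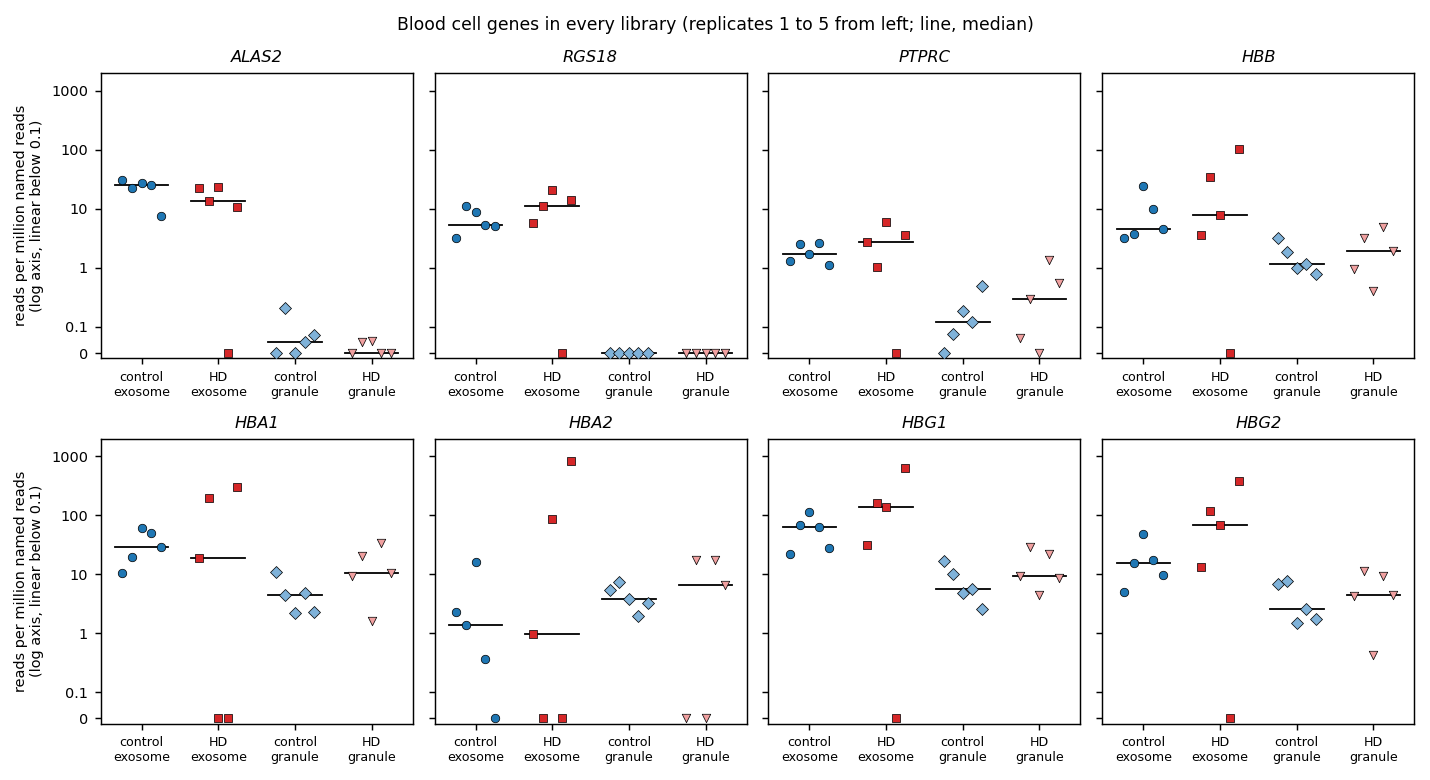
RPM of each of the 8 genes in all 20 libraries (points, replicates 1 to 5 from the left within a group; line, group median; log axis that is linear below 0.1). ALAS2 and RGS18 lie above all granules in every exosome library but HD exosome 4, which held 713 named reads, while HBA1 and HBA2 overlap between compartments and all 5 globins are highest in HD exosome 5.

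ALAS2, the heme synthesis gene, separated the compartments widely. In control exosomes 1 to 5 it stood at 31.4, 22.8, 27.98, 25.7 and 7.56 RPM, from 284, 204, 165, 136 and 48 estimated reads. In the 5 control granules it had 5 reads in all, and the highest value was 0.213 RPM. The groups did not overlap, and control exosome 5 was the low library of its group, with a counting interval of 5.57 to 10.02 (95% exact Poisson, counting error only). Over pooled reads the exosomes were 377-fold higher, with a 95% interval of 161 to 1165 for counting error.

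In HD libraries, whose values were also known when the genes were picked, HD exosomes 1, 2, 3 and 5 stood at 22.5, 13.9, 23.4 and 10.7 RPM, and HD granules had 2 reads in all, with a highest value of 0.0446. All 4 usable exosomes lay above all 5 granules, and the pooled ratio was 1037-fold (95% interval 284 to 8605, counting error only). With HD exosome 4 in the fit, ALAS2 failed the filter on low counts, and without it ALAS2 passed only through the exosomes, so the counts are given and no test.

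RGS18, the platelet gene, had no read in any of the 10 granules. Each granule's 0 reads allow at most 0.122 to 0.264 RPM, a floor of 3 reads. In control exosomes 1 to 5 it stood at 3.21, 11.2, 8.79, 5.28 and 5.19 RPM, and in HD exosomes 1, 2, 3 and 5 at 5.67, 11.3, 21.1 and 13.98. The transcript was therefore detected in every usable exosome library and in no granule. Against 3 reads over each granule group, RGS18 was at least 182-fold higher in control exosomes and at least 360-fold higher in HD exosomes. As with ALAS2, no test is given, because RGS18 passed the filter on low counts only through the exosomes.

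Most reads of both genes in exosomes lay on coding transcripts. A protein-coding transcript of 1940 bases took 55.8% of ALAS2 reads in control exosomes, and another, of 1795 bases, took 50.02% in HD exosomes. RGS18-201, a coding transcript of 2145 bases, took 90.6% of RGS18 reads in control exosomes and 89.6% in HD exosomes. On build GRCh38.p14, ALAS2 lies on chromosome X from 55009055 to 55030977 and RGS18 on chromosome 1 from 192158462 to 192185815.

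ALAS2 and RGS18 are shown here with the 250 bases before their annotated start sites because they were the members nearly absent from granules. GATA factors, which drive red cell and platelet precursor genes, bind motifs with GATA at their core. The capitals mark matches to GATAA on either strand, and the sequences are from RefSeq on GRCh38.p14, at chrX:55030978-55031227 on the minus strand and chr1:192158212-192158461 on the plus strand.
ALAS2: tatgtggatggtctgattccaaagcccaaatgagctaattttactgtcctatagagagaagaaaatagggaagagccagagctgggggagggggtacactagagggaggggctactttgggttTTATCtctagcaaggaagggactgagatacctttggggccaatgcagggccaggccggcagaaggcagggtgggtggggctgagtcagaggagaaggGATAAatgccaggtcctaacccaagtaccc
RGS18: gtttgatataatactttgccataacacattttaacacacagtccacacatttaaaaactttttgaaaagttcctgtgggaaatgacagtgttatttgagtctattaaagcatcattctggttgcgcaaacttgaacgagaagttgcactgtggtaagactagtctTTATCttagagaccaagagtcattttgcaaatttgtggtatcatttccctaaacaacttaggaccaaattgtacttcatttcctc
ALAS2 held 2 matches and RGS18 held 1. Of 35116 such windows in RefSeq, 20.4% held at least 1 match, and a match of this length is a description of letters only. Of the 8 members, 3 had an entry in the promoter table, and that of PTPRC held 0 GATAA matches. A second motif looked for, GAGGAA, had 1 match in RGS18 and 0 in ALAS2 and PTPRC, and 23.6% of such windows held it.

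PTPRC, the leukocyte phosphatase, was the scarcest member in exosomes by group mean. Control exosomes 1 to 5 had 12, 23, 10, 14 and 7 reads, or 1.33, 2.58, 1.70, 2.64 and 1.10 RPM. Control granules had 0, 1, 3, 3 and 7 reads, at most 0.494 RPM, so the control groups did not overlap. In HD cells they did: HD exosomes 1, 2, 3 and 5 stood at 2.70, 1.03, 6.03 and 3.66 RPM and HD granule 4, with 33 reads, at 1.38. The fitted log2 fold change of HD granules against HD exosomes was -2.45 ± 0.95 and did not pass (edgeR, adjusted p = 0.0851), although it did without HD granule 3 (adjusted p = 0.0392).

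Most PTPRC reads did not lie on coding transcripts. In control exosomes 54.6% fell on transcripts annotated as retaining an intron, led by PTPRC-212 with 37.9%, and 36.8% on protein-coding ones. In HD granules 75.0% were on retained-intron transcripts and 11.1% on coding ones, from 54 reads. PTPRC lies on chromosome 1 from 198638713 to 198757476 (GRCh38.p14).

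Of the globins, HBG1 and the summed gamma pair were the most abundant in control exosomes, and both gamma genes were detected in granules as well. HBG1 stood at 22.4, 68.8, 115, 64.1 and 28.4 RPM in control exosomes 1 to 5 and at 16.6, 10.1, 4.78, 5.73 and 2.62 in control granules. HBG2 stood at 4.99, 15.3, 47.98, 17.4 and 9.90 in the exosomes and at 6.79, 7.66, 1.49, 2.58 and 1.71 in the granules. The groups were apart for HBG1, with control exosome 1 the lowest exosome and control granule 1 the highest granule, and overlapped for HBG2.

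By RPM the gamma genes reached higher values in HD exosomes 2, 3 and 5 than in any control exosome. RPM in HD exosome 2 rests on the 13.4% of its reads that fell on named transcripts. HBG1 stood at 30.9, 163, 138 and 635 RPM in HD exosomes 1, 2, 3 and 5, against 9.44, 28.7, 4.41, 22.2 and 8.64 in HD granules 1 to 5. HBG2 stood at 13.3, 117, 69.5 and 375 in those exosomes and at no more than 11.5 in HD granules. All 4 usable exosomes lay above all 5 granules for both genes, with HD exosome 1 close to HD granule 2. Over all 10 libraries HBG1 was lower in granules with a log2 fold change of -3.70 ± 0.77 (edgeR, adjusted p = 0.00806) and HBG2 with -4.27 ± 0.91 (adjusted p = 0.00853).

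HBG1 and HBG2 lie beside each other on chromosome 11 (5248269 to 5249857 and 5253188 to 5254781, GRCh38.p14) and are nearly identical in sequence, so reads were divided between them by estimation. Their main transcripts in GENCODE release 29 were identical at 582 of 586 aligned bases (99.3%), and their coding sequences of 444 bases differed at 2. The coding stretches around those bases are printed because they are where a coding read can be told apart. The capital is the differing base, at coding positions 227 and 410, counted from the A of the start codon.
HBG1 at 227: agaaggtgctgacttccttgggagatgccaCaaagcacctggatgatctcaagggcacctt
HBG2 at 227: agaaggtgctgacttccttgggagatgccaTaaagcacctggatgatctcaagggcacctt
HBG1 at 410: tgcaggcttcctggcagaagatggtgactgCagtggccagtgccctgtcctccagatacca
HBG2 at 410: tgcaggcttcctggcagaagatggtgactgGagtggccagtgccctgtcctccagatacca
The share of HBG1 in the gamma reads was 70.6% to 81.8% in control exosomes, 58.4% to 69.9% in usable HD exosomes, 56.9% to 76.2% in control granules and 66.0% to 91.2% in HD granules. Summed over both genes, gamma reads stood at 27.4, 84.1, 163, 81.5 and 38.3 RPM in control exosomes. In HD exosomes 1, 2, 3 and 5 the sum was 44.2, 280, 208 and 1010. Fitted as 1 gene, the pair was lower in HD granules by a log2 fold change of -3.85 ± 0.82 (edgeR, adjusted p = 0.00859), and by -2.84 ± 0.70 without HD exosome 5 (adjusted p = 0.0206).

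The alpha chain genes were harder to tell apart. HBA1 and HBA2, on chromosome 16 at 176680 to 177522 and 172876 to 173710, have the same coding sequence of 429 bases, and their main transcripts were identical at 557 of 576 aligned bases (96.7%). HBA1 took 79.2% to 100% of the alpha reads in control exosomes and 36.6% to 71.1% in control granules, but 95.1%, 100%, 0% and 27.1% in HD exosomes 1, 2, 3 and 5. A single-gene value of HBA1 or HBA2 is therefore uncertain, and the sum is the firmer measure.

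**Figure D2:**
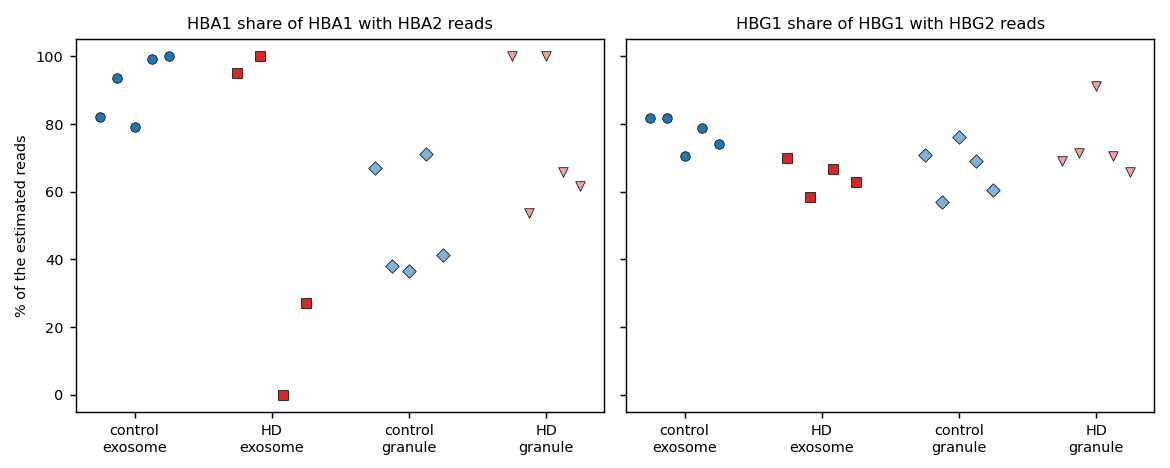
Percent of the estimated reads of a near-identical pair that were assigned to HBA1 (left) and to HBG1 (right), per library, with replicates in order from the left and HD exosome 4 left out for want of reads. HBA1's share runs from 0% to 100% among the libraries, while HBG1's stays between 56.9% and 91.2%.

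Summed alpha reads stood at 13.01, 21.1, 78.1, 51.4 and 28.8 RPM in control exosomes 1 to 5 and at 16.3, 11.8, 6.05, 6.77 and 5.60 in control granules. Control granule 1 lay above control exosome 1, so the groups overlapped. In HD exosomes 1, 2, 3 and 5 the sum was 19.9, 195, 85.5 and 1126, against 9.49, 38.5, 1.60, 51.2 and 17.3 in HD granules. HD exosome 5 was the highest library by far, and HD exosome 1 lay below HD granules 2 and 4. The summed pair was lower in HD granules by a log2 fold change of -3.52 ± 1.04 (edgeR, adjusted p = 0.0329), and this call was lost without HD exosome 5 (-1.87 ± 0.88, adjusted p = 0.147). HBA1 alone did not pass at -2.85 ± 1.09 (adjusted p = 0.0842), although it did without HD exosome 3 (adjusted p = 0.0382), in which it was listed at 0. HBA2 alone did not pass at -4.32 ± 1.87 (adjusted p = 0.128).

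HBB, the adult beta chain gene, was the scarcest globin family by length-corrected level. It stood at 3.21, 3.74, 24.7, 9.81 and 4.63 RPM in control exosomes 1 to 5 and at 3.17, 1.85, 1.00, 1.17 and 0.777 in control granules. The groups met without overlapping, control exosome 1 lying just above control granule 1. In HD exosomes 1, 2, 3 and 5 it stood at 3.65, 35.02, 7.83 and 103, and in HD granules 1 to 5 at 0.958, 3.22, 0.402, 5.02 and 1.95, where HD exosome 1 lay below HD granule 4. HBB was lower in HD granules by a log2 fold change of -3.75 ± 0.90 (edgeR, adjusted p = 0.0142), and just missed the threshold without HD exosome 5 (adjusted p = 0.0542). It lies on chromosome 11 from 5225464 to 5227071.

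Within the globin transcripts, gamma exceeded beta in all 19 usable libraries. Of the summed globin TPM, gamma made up 71.2%, 83.0%, 66.2%, 58.3% and 57.9% in control exosomes 1 to 5, alpha 14.7% to 37.1% and beta 2.38% to 10.2%. Control granules had 36.6% to 55.2% gamma and 39.4% to 57.3% alpha. The gamma share of every control exosome thus lay above that of every control granule. In HD exosomes 1, 2 and 3 it was 68.7%, 54.2% and 69.8%, but in HD exosome 5 alpha led with 64.5% and gamma had 32.0%. HD granules spanned 32.3% to 68.6%, so the HD compartments overlapped. The libraries' summed globin TPM was 31.0 to 184 in control exosomes, 60.2, 66.7, 257 and 4081 in HD exosomes 1, 2, 3 and 5, and 9.41 to 62.9 in granules of both states.

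**Figure D3:**
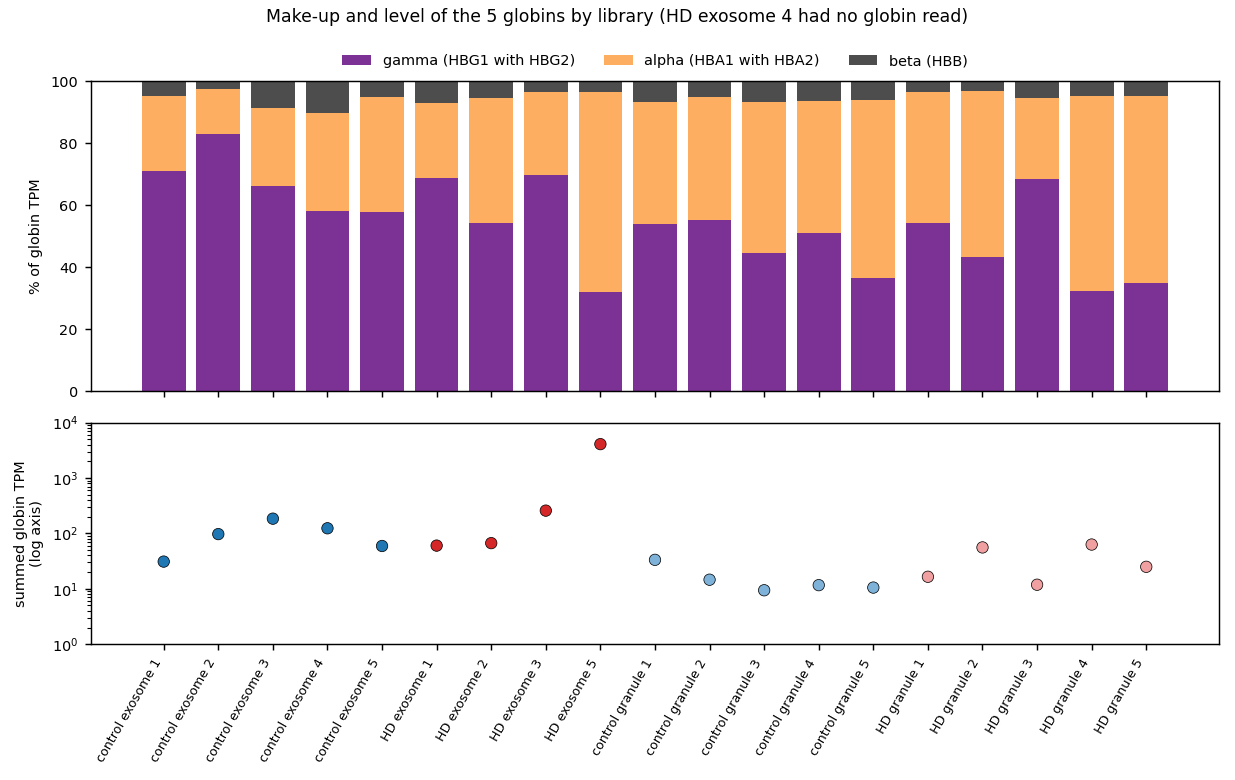
Percent of the summed globin TPM on gamma, alpha and beta genes (upper panel, stacked to 100%) and the summed globin TPM itself (lower panel, log axis), per library. Gamma leads in 5 of 5 control exosomes; HD exosome 5 has 4081 TPM, the highest level, with alpha at 64.5%.

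Read against all genes, the members' counts were as follows. In control cells 7 of the 8 were called higher in exosomes (all but HBA2), where 32.5% of 14777 genes tested were; this contrast picked the members, so nothing is read from it. In HD cells 6 members were tested with all libraries and 3 were called higher in exosomes (HBB, HBG1 and HBG2), where 5.77% of 14431 genes were. Of all genes 833 were higher in exosomes and 1720 in granules there, a split of 577 and 2459 with RLE size factors and of 1501 and 1254 with total reads. Without HD exosome 4 the same 3 genes were called, where 7.85% of 16171 genes were; ALAS2 and RGS18 were called too, but they passed the filter only through the exosomes and their calls support nothing. Without HD granule 3 the count was 6, with PTPRC, ALAS2 and RGS18 added, and the share of all genes rose to 17.4%. The median log2 fold change of the 6 members tested, the globins and PTPRC, was -3.72 in HD cells, beside 0.17 over all genes tested. It leaves out ALAS2 and RGS18. The HD values were also known when the genes were picked, and the 3 called globins moved together across exosomes. The HD counts and this median are therefore descriptions too. By levels, 4 of 8 members had the 4 usable HD exosomes all above the 5 HD granules, against 7.45% of genes. Those members were ALAS2 and RGS18, which passed the filter only through the exosomes and so support nothing, and the near-identical HBG1 and HBG2. In control cells 5 of 8 had the groups apart, against 23.4%, but that contrast picked the members, so nothing is read from it either.

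**Figure D4:**
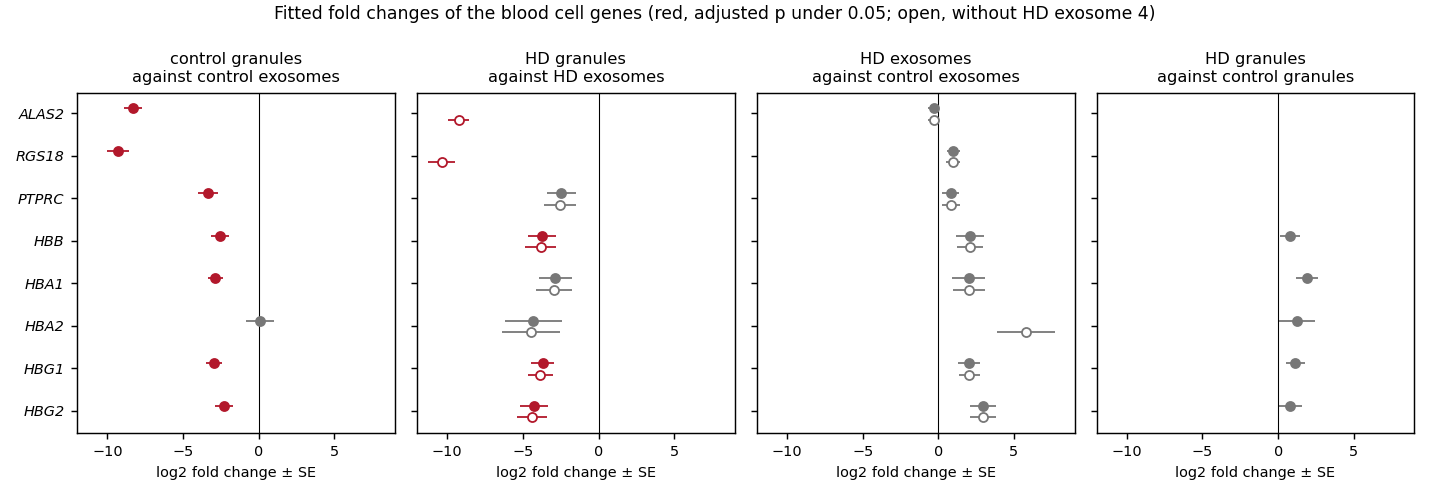
Log2 fold changes with standard errors from the edgeR fits for the 8 genes in 4 comparisons (filled, all libraries; open, without HD exosome 4; red, adjusted p under 0.05; no point where a gene failed the filter on low counts). Negative values in the left panels mean lower in granules; the value of RGS18 there depends on the fit since granules had no read, and no point passes in the right panels.

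The effect of the HD state on the members did not pass in either compartment. These comparisons share the control libraries with the contrast that picked the genes. In exosomes 7 members were tested and 0 were called, as were 0 of all 12936 genes (0.0%; DESeq2 also called 0), while 980 genes (7.58%) had an unadjusted p under 0.05. Among the members 4 did: HBG2 at a log2 fold change of 2.94 ± 0.88, HBG1 at 2.02 ± 0.74, HBB at 2.09 ± 0.93 and RGS18 at 0.97 ± 0.43, each with an adjusted p of 0.598. HBA1 was at 2.01 ± 1.08, PTPRC at 0.83 ± 0.56 and ALAS2 at -0.31 ± 0.36. Leaving out HD exosome 1 changed this: 497 of 13088 genes (3.8%) were called, and HBG2 was the only member among them (log2 fold change 3.35, adjusted p = 0.0442). Without HD exosome 5, 0 of the 7 members tested had an unadjusted p under 0.05 (edgeR). Their median log2 fold change was then 0.97, against 2.01 with all libraries. With a replicate block, 1 of 7 had an unadjusted p under 0.05.

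Among HD exosomes the globin levels spread widely. HD exosome 1 lay inside the range of control exosomes for ALAS2, HBG1, HBG2, HBB, RGS18 and both summed pairs, while HD exosome 5 lay above it for every globin. The mean summed level of the 5 globins was 779 ± 989 RPM (SD, n = 4) in usable HD exosomes, 293 ± 221 (n = 3) without HD exosome 5 as well, and 127 ± 86.4 (n = 5) in control exosomes. The denominator mattered for HD exosome 2, in which most reads lay on unnamed entries: its HBB was 35.02 RPM but 3.63 TPM, within the control exosomes' 1.45 to 15.7 TPM. Its summed globin TPM of 66.7 also lay within the control exosomes' 31.0 to 184.

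In granules 5 members were tested and 0 were called, as were 0 of 16750 genes (0.0%; DESeq2 called 4, none of them a member), with 215 genes (1.28%) at an unadjusted p under 0.05. HBA1 was at a log2 fold change of 1.89 ± 0.72, HBA2 at 1.23 ± 1.24, HBG1 at 1.14 ± 0.61, HBG2 at 0.81 ± 0.77 and HBB at 0.81 ± 0.66, each with an adjusted p of 1.00. ALAS2, RGS18 and PTPRC had too few reads in granules to be tested. The difference between the HD effects of both compartments was called for 3 of 16154 genes (0.0186%; DESeq2 called 17), none of them a member, and 778 genes (4.82%) had an unadjusted p under 0.05. Among the members HBA2 did, at -4.52 ± 2.11 (adjusted p = 0.875). For RGS18 it could not be estimated. For HBG1 it was -0.84 ± 0.95 and for ALAS2 -0.91 ± 0.87.

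Genes around ALAS2 in the pathway were present at higher levels in all groups. Of the other 13 heme synthesis genes, all were tested in control cells, and 9 were lower and 1 was higher in granules, where 32.5% of all genes were lower (median log2 fold change -0.91, beside -0.02 over all genes). In HD cells 3 of 13 were lower and 0 higher, where 5.77% of all genes were lower (median -0.80, beside 0.17). The mitochondrial carrier SLC25A39 was at -2.44 ± 0.37 in control cells and, not passing, at -1.63 ± 0.58 in HD cells (edgeR, adjusted p = 0.0646 in HD cells). UROD, a decarboxylase in the middle of the pathway, was at -1.18 ± 0.19 in control cells and -1.08 ± 0.28 in HD cells (edgeR, adjusted p = 0.0196 in HD cells). ABCB10, a mitochondrial membrane transporter, went the other way in control cells, at 0.42 ± 0.11. Their summed level was 976 to 1324 RPM in control exosomes and 450 to 628 in control granules, 636 to 1098 in usable HD exosomes and 364 to 715 in HD granules.

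Other genes of the same blood lineages were counted from lists that also hold genes of wider expression. Over all 14777 genes tested in control cells, 4796 (32.5%) were lower and 4431 higher in granules, and without HD exosome 4 in HD cells 1270 of 16171 (7.85%) were lower and 1648 higher. Of 37 red cell genes, 18 were tested in control cells, with 11 lower and 1 higher in granules; of 34 platelet genes 15 were tested, with 9 lower and 1 higher; of 44 leukocyte genes 8 were tested, with 4 lower and 1 higher. In HD cells without HD exosome 4, the counts lower and higher were 4 and 1 of 18 red cell genes, 3 and 1 of 16 platelet genes and 5 and 0 of 12 leukocyte genes. Of the leukocyte genes, LAPTM5 and IKZF1 had at most 0.258 and 0.301 RPM in HD granules. They passed the filter on low counts only through the exosomes, so their calls support nothing. Other list genes scarce in granules, such as MYL9 (at most 0.283 RPM in control granules), share this limit. Summed levels of the red cell list were 670 to 724 RPM in control exosomes and 529 to 606 in control granules. Those of the platelet list were 796 to 1119 and 927 to 1304, and those of the leukocyte list 150 to 200 and 75.9 to 90.3. In usable HD exosomes the sums were 514 to 773 for the red cell list, 629 to 841 for the platelet list and 173 to 237 for the leukocyte list, and in HD granules 493 to 658, 777 to 1365 and 67.0 to 146.

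The best-known markers of each lineage gave a mixed picture in the 19 usable libraries; these were singled out after their values were seen. AHSP (the alpha-globin chaperone), HBE1, PPBP and GP9 had no read in any group, and PF4 had 5 reads in all. Others followed the compartment. GATA1, the red cell and megakaryocyte factor, had 77 reads in control exosomes and 0 in control granules, and 18 against 3 in HD cells. SLC4A1, the red cell anion exchanger, had 95 against 16 and 25 against 14. Of platelet genes, TUBB1 had 299 reads in control exosomes against 63 in control granules, F13A1 94 against 1, and MYL9, a myosin light chain also known from smooth muscle, 988 against 15. Of leukocyte genes, LAPTM5 had 576 against 14, IKZF1 187 against 6 and FCER1G 106 against 6. Lists of other tissues were counted beside them in control cells, where 32.5% of all genes were lower in granules and 4431 of 14777 higher. Of 22 keratinocyte genes 5 were tested, with 4 lower and 0 higher in granules, and of 13 fibroblast and endothelium genes 4 were tested, with 2 lower and 2 higher. Among those lower, KRT1, KRT5, DSG1 and COL1A2 had at most 0.782 RPM in any control granule. They passed the filter on low counts only through the exosomes, so their calls support nothing. None of the 16 serum and liver genes was tested, and their sum was at most 6.31 RPM in any library. Of the 15 HEK293 genes 13 were tested, with 9 lower and 2 higher. What part any blood cell source had in the members' reads was not tested.

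Relatives of the members were counted in the same way, beside the same 32.5% of all genes lower in granules in control cells and 4431 of 14777 higher. Of 20 other RGS genes, 12 were tested in control cells, with 5 lower and 2 higher in granules (3 and 3 with RLE size factors), and RGS16, the most abundant in control exosomes, had a log2 fold change of -0.38 ± 0.13. Of 19 other receptor tyrosine phosphatases, 13 were tested, with 0 lower and 7 higher in granules under each of the 3 scalings tried (median 0.45 with TMM). Of the 5 other globins, only HBQ1 was tested, and it was not called in either state, at 0.60 and -0.79.

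Across libraries, ALAS2 and the globins followed different genes. Over the 19 usable libraries, the 10 coding genes most like ALAS2 among 11062 compared were H4C9, MYL9, TUBA4A, RPL10L, LAPTM5, RIPOR2, H2BC13, RAB13, RASSF3 and ARRDC4, with Pearson's r of 0.97 to 0.99 on log2(RPM + 1). The 19 points formed separate exosome and granule clusters, so these values describe the gap between compartments. Within the 9 exosomes, r of ALAS2 was 0.89 with MYL9, 0.79 with LAPTM5 and 0.77 with TUBB1. With GATA1, a red cell factor, it was only 0.30 (0.04 without HD exosome 5). It was -0.31 with summed HBG1 and HBG2, -0.45 with summed HBA1 and HBA2 and -0.36 with HBB. Control exosome 5 was the lowest control exosome for ALAS2, MYL9, LAPTM5 and TUBB1, with 7.56 RPM of ALAS2, 8.97 of MYL9, 6.44 of LAPTM5 and 3.07 of TUBB1. The gene most like ALAS2 within exosomes was FERMT3, an integrin activator of blood cells, at 0.93. The rest of the top 10, at 0.89 to 0.91, were GDF7, CITED2, SPARC, ETFB, METRN, MORN1, LAMB2, BLCAP and MAPK8IP3. MYL9, LAPTM5 and TUBB1 were not among them.

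The globins moved with each other. Within the 9 exosomes r was 0.96 between the summed alpha and gamma pairs, 0.96 between alpha and HBB and 0.92 between gamma and HBB, and it stayed at 0.82 to 0.92 without HD exosome 5. KRT5, a keratin of basal skin cells, had an r of 0.89 with alpha and 0.82 with gamma (0.82 and 0.67 without HD exosome 5) and of 0.78 with HBB (0.60 without it). The 10 genes most like the gamma pair within exosomes held no keratin and began with CACNB2 and RAB27A, both at 0.97. Over the 19 usable libraries, which hold both compartments, the order differed. There KRT1 was at rank 1 (0.89), RAB27A at 2 (0.89), DSG1 at 3 (0.89) and KRT5 at 6 (0.88) of 11062 genes. KRT5 stood at 1.11, 1.03, 12.04, 17.5 and 23.5 RPM in control exosomes 1 to 5 and at 5.00, 52.1, 90.7 and 341 in HD exosomes 1, 2, 3 and 5. The 21 keratinocyte genes found in the files summed to 376 to 625 RPM in control exosomes, 515 to 2137 in usable HD exosomes, 218 to 478 in control granules and 155 to 489 in HD granules. Of these, DSP alone stood at 357 to 572 RPM in control exosomes and 479 to 635 in usable HD exosomes. It stood at 213 to 474 in control granules and 149 to 480 in HD granules, so the granule sums were nearly all DSP. HD exosome 5 held the highest level both of KRT5 and of every globin, and the part of keratinocyte RNA or of 1 library in the globin values was not tested. RGS18 moved with the gamma pair (r 0.79) and not with ALAS2 (-0.16). Its r was -0.38 with MYL9, -0.51 with TUBB1, -0.59 with LAPTM5 and -0.82 with GATA1. PTPRC, with 2 to 23 reads a library, had its highest r with a member at 0.63, with RGS18. All these r values share libraries and their depths and are descriptions over 9 points.

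**Figure D5:**
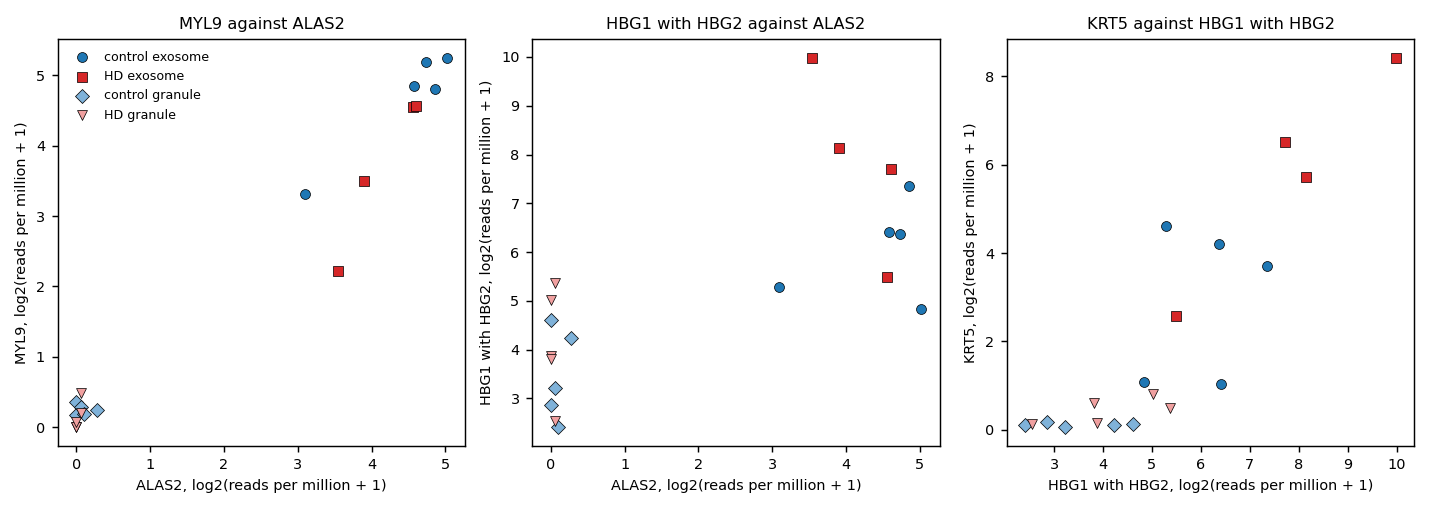
Levels on log2(RPM + 1) in the 19 libraries with usable depth: MYL9 against ALAS2 (left), summed HBG1 and HBG2 against ALAS2 (middle) and KRT5 against summed HBG1 and HBG2 (right). Within exosomes ALAS2 rises with MYL9 (r 0.89, n = 9) and not with the gamma genes (r -0.31), which rise with KRT5 (r 0.82).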

How the data were processed

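Total RNA of 20 HEK293 libraries was analysed from transcript tables. Per the submitters' processing notes, reads were handled with Trimmomatic, cutadapt, FastQC and Salmon on GRCh38.p14; their versions and the annotation used are not stated in the labels or headers. Each table of 921552 entries held, per the file headers, the authors' estimated counts (expected reads, not whole numbers) and TPM values. The 251955 named transcripts were summed to 62266 genes, and the 669597 unnamed entries were left out of gene levels. Salmon can divide reads between near-identical genes, so HBA1 with HBA2 and HBG1 with HBG2 were also summed.

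Rounded estimated counts were tested with edgeR 4.0.16 (filterByExpr, TMM, robust quasi-likelihood, Benjamini-Hochberg over all genes, adjusted p under 0.05) in R 4.3.3, tested on simulated data. Only the groups compared entered each fit, and all 20 libraries entered the fit of the difference between HD effects. DESeq2 1.42.0, other scalings, no filter, a replicate block and left-out libraries were alternatives; likeness used log2(RPM + 1). Levels (RPM) are scaled to named reads. Depth sets their precision: intervals are 95% exact Poisson or binomial and, like floors of 3 reads, cover counting error only. No library pair had identical values.

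The members and the 11 gene lists were chosen with earlier results of these data known. The text names all members, up to 4 genes of a list with the highest mean level over control exosomes, the 10 genes most like ALAS2, and markers singled out after their values were seen; some genes under this rule are not reported here. Likeness to the gamma pair, likeness within exosomes, the summed pairs and list counts without HD exosome 4 or with other scalings were added after seeing the data. Positions are from RefSeq and transcript identity from GENCODE release 29.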

Additional observations from a re-analysis of the deposited data

Results flagged for a closer look

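Of 46 sets of values (a gene or sum in a group, HD exosome 4 left out), 4 held a library whose gap to its nearest neighbour was too large a share of the group's range by Dixon's criterion, which chance meets in about 1 of 20 groups. HBA2 in control exosome 3 stood at 16.3 RPM, with the next library at 2.32. HBG2 in the same library stood at 47.98, with the next at 17.4. HBA2 in HD exosome 5 stood at 821, with the next at 85.5, and summed HBA1 and HBA2 in that library at 1126, with the next at 195. The HBA2 and HBG2 values rest on the division of reads within a near-identical pair, and in control exosome 3 neither summed pair stood apart by this criterion.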

How the results depend on the processing

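In control cells 7 or 8 members were called higher in exosomes or, for HBA2, in granules under every alternative tried. In HD cells the count of 3 became 5 without a count filter, where 2126 of 37271 genes were called higher in exosomes. It was also 5 with HD granule 3 and HD exosomes 2 and 4 left out together, where 16.4% of 16455 genes were. The genes added were ALAS2 and RGS18, nearly absent from granules, so their calls support nothing. With 1 library left out the count ranged from 2 (without HD exosome 5, 774 of 15785 genes) to 6 (without HD granule 3, 2404 of 13780 genes). Between HD and control exosomes the count of 0 became 1 without HD exosome 1 and ranged from 0 to 1 when 1 library was left out. No other count of called members moved. For HBA2 in control cells (0.08), leaving out 1 library gave -0.25 to 1.92 on the log2 scale, and the call appeared without control exosome 3 (adjusted p = 0.0400). For HBA2 between HD and control granules the replicate block gave -0.18. For the difference between HD effects, HBA1 (-0.11) turned to 0.056 with DESeq2 and 0.55 without those 3 libraries, and to 0.61 without HD exosome 5; its range with 1 library left out was -0.65 to 0.61. With 1 library left out, HBG1 ranged from -1.29 to 0.21 and summed HBA1 and HBA2 from -1.63 to 0.12 (the upper values without HD exosome 5), and PTPRC from -0.21 (without HD granule 4) to 1.54. The cause of these changes was not tested.

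Replicate numbers are shared between groups, but in no comparison was the correlation of same-numbered libraries over 0.1 in every pair (-0.18 to 0.43 in all, 0.029 to 0.27 between HD granules and HD exosomes), so no pairing was assumed. With a replicate block, HD cells gave 2 called members (HBB and PTPRC), where 1415 of 14431 genes were called higher in exosomes. HBG1 (-3.53, edgeR, adjusted p = 0.0593) and HBG2 (-4.29, adjusted p = 0.0689) missed the threshold. Between HD and control exosomes 296 genes differed with the block, none of them a member.

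Scaling moved the median of all genes in HD cells from 0.17 to 0.32 (RLE) or -0.08 (total reads), and the genes called higher and lower in granules from 1720 and 833 to 2459 and 577 or 1254 and 1501. HBB, HBG1 and HBG2 were called under both. The mean summed level of the members was 158 RPM in control exosomes, 651 in HD exosomes (813 without HD exosome 4, 247 without HD exosome 5), 23.2 in control granules and 47.1 in HD granules. With other denominators, transcript classes or units it was 91.7 to 153 RPM or TPM in control exosomes and 394 to 902 in HD exosomes. Depth limits HD exosomes most: 1 library is void, and PTPRC rests on 2 to 20 reads in the others.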
